A study of Mus musculus with 6 samples.

Results

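The genes described here are the amino acid transporters of the mouse solute carrier families Slc1, Slc3, Slc6, Slc7, Slc36, Slc38 and Slc43, measured by RNA sequencing in adult pancreatic acinar cells with and without Trip12. Members were the protein-coding genes whose symbol is one of these family names followed by the letter a and a number, which gave 61 genes of the 55414 in the count tables. The rule uses names only, so it also takes in Slc6 carriers of neurotransmitters, creatine and taurine, and it leaves out Slc6a20a and Slc6a20b. Acinar cells, which make and secrete digestive enzymes, were taken from 3 control preparations of genotype Pdx1Cre;Trip12+/+ and 3 knockout preparations of genotype Pdx1Cre;Trip12fl/fl. All 6 came from untreated adults and carried the Cre recombinase, which the Pdx1 promoter drives throughout the pancreatic epithelium, islet and duct cells included. TRIP12 is an E3 ubiquitin ligase, an enzyme that marks proteins for degradation. The tumour cell lines in the series title were not analysed here.

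Acinar cells have one of the highest rates of protein synthesis of any cell and take up large amounts of amino acids through carriers in the basolateral membrane. Sodium-coupled carriers such as those of the Slc38 family accumulate glutamine and small neutral amino acids, and exchangers made of an Slc3 heavy chain and an Slc7 light chain trade these for leucine and other large neutral amino acids. Cationic carriers of the Slc7 family bring in arginine and lysine, and a few Slc36 and Slc38 proteins sit on lysosomes, where they release amino acids and report their supply to the growth kinase mTORC1.

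Each library held between 31019500 and 34041901 counts in genes. Trip12 itself was at 22.3 to 29.0 CPM (counts scaled to library size, with TMM factors that correct for library composition) in the controls and at 13.0 to 14.7 CPM in the knockouts, with a log2 fold change of -0.89 (SE 0.14; adjusted p = 0.0256 in edgeR's quasi-likelihood test). Leaving out control replicate 1 kept this below 0.05, and leaving out any other single library gave an adjusted p from 0.0676 to 0.140. Counts over the whole gene do not show which exons the deleted allele lacks. Values of single libraries are given throughout in the order of replicates 1 to 3. All 10 acinar markers had counts in every library, and none of them passed the test. Their summed level was 429810, 584069 and 549126 CPM in the controls and 368191, 366881 and 377064 CPM in the knockouts, lower in every knockout library. That separation depends on the TMM factors, which were 0.785 to 1.02 in the controls and 1.12 to 1.19 in the knockouts. Scaled by library totals alone, the sums overlapped between the groups. Abundant digestive enzymes make up most of the acinar marker sum, and the markers did not move together. Cela1, Cela2a, Cel and Pnlip were lower in every knockout library with TMM factors. Scaled by library totals alone, only Cela2a of these was lower in every knockout library. Rbpjl was higher in every one, at 183, 280 and 180 CPM in the controls against 486, 658 and 370 CPM in the knockouts. The other acinar markers overlapped between the groups. The part of the acinar marker level in the results was not tested. Markers of other cells were unevenly present. The summed level of 10 leukocyte markers was 58.2, 8.22 and 9.09 CPM among the controls against 37.7, 7.94 and 25.7 CPM among the knockouts. Stromal and endothelial markers followed the same libraries, with 129.9, 29.99 and 46.2 CPM in the controls against 150.9, 37.9 and 107.7 CPM in the knockouts. Islet markers ran from 359 to 467 CPM in control and from 246 to 916 CPM in knockout, and duct markers from 185 to 228 and from 171 to 261 CPM. Of the duct markers, Krt19, Cftr and Muc1 were lower and Spp1 higher in every knockout library, and the others overlapped. Krt19 also overlapped when scaled by library totals alone. All 10 leukocyte, 10 stromal and 10 islet markers had counts in every library, and the adipocyte markers Adipoq and Lep had none in any. The labels do not give sex. Xist, the transcript of the inactive X chromosome, was counted 2118 and 2440 times in control replicates 2 and 3 and at most 5 times elsewhere, so Xist status and genotype are partly confounded and the knockouts have only control replicate 1 as a counterpart. In bulk RNA, fewer cells of a type and less RNA per cell cannot be told apart.

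Of the 61 members, 34 had enough counts to be tested. No count was seen in any library for 10, among them the light chains Slc7a9, Slc7a10 and Slc7a12, the glutamate carriers Slc1a6 and Slc1a7, and Slc38a8. The other 17 had some counts, at most 10 in a library, and 9 of these stayed at or below 3 counts in every library. Among the 17 were Slc3a1, the heavy chain of the renal cystine carrier, with 2 to 5 counts per library, Slc43a1, with 0 to 6, and Slc1a1, a glutamate and cysteine carrier, with 0 to 2.

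Levels of different genes were compared as CPM per kilobase of exon, with the length taken over all annotated exons of a gene. The order of genes depends on these lengths, which need not be those of the transcripts present. In each control library the highest member was Slc38a5, a sodium-coupled glutamine carrier, at 24.4, 27.3 and 23.8 CPM per kb, and its mean was 25.2 in the controls and 8.22 in the knockouts. In each knockout library the first 3 places went to Slc38a3, Slc3a2 and Slc7a8. Over all 6 libraries pooled, the highest mean was that of Slc38a3, a sodium-coupled carrier of glutamine, asparagine and histidine, at 25.2 CPM per kb ± 4.18 (SD, n = 6). It was followed by Slc3a2, the heavy chain CD98 that anchors several light chains, at 23.1 ± 3.45, and by Slc7a8, a light chain that exchanges neutral amino acids, at 22.6 ± 5.02. These levels overlapped across libraries, with Slc38a3 above Slc3a2 in 4 of 6 libraries and Slc3a2 above Slc7a8 in 3 of 6. Slc38a5, of the same transport type as Slc38a3, averaged 16.7 ± 9.49 over both groups, the widest spread of these genes. Then came Slc38a10 at 14.3 ± 1.76, and Slc7a5, the leucine-preferring light chain, at 10.3 ± 1.86. Slc1a5 (9.02 ± 0.954) and Slc38a2 (8.57 ± 1.28), which take up glutamine and small neutral amino acids, lay close to Slc6a9, the glycine carrier, at 8.11 ± 1.44. Each of these neighbours overlapped the next. A gap without overlap separated Slc6a9 from Slc1a4, a carrier of serine and alanine and the gene ranked 10, at 3.42 ± 0.467. The first 10 genes held 83.1% to 86.1% of the summed level per kb of all members in every library, so most of the family's transcripts came from few genes.

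**Figure D1:**
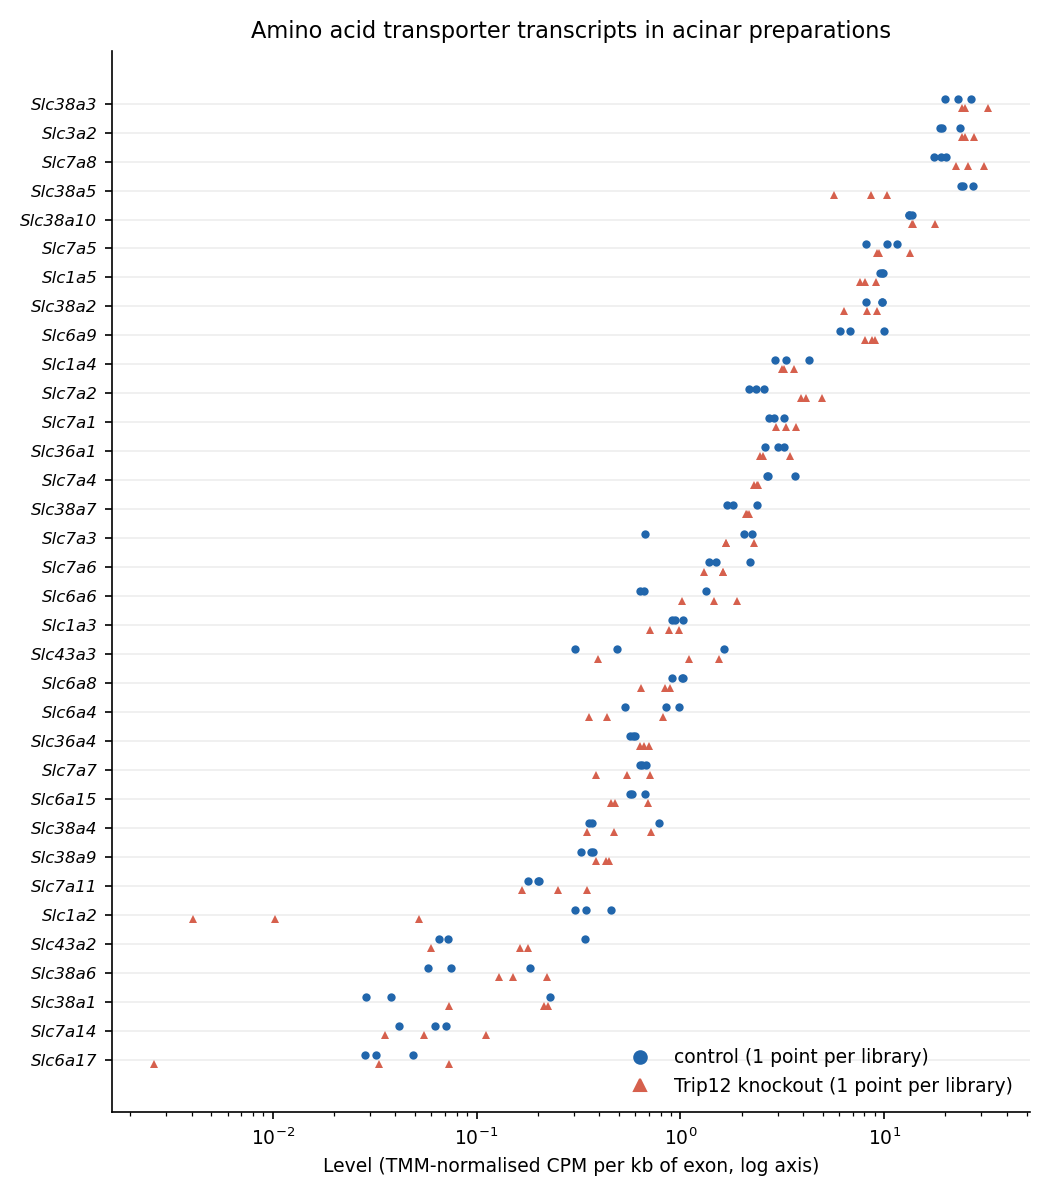
Level of each of the 34 tested transporter genes in TMM-normalised CPM per kb of exon (log axis), with 1 point per library for 3 control and 3 knockout libraries. Slc38a5 is the highest gene in the controls and Slc38a3, Slc3a2 and Slc7a8 are the highest in the knockouts, and the knockout points of Slc38a5 and Slc1a2 lie below all their control points.

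The comparison of knockout with control asks which of these carriers change when Trip12 is deleted. edgeR's quasi-likelihood test, adjusted over all tested genes by the Benjamini-Hochberg method, called 2 of the 34 tested members at an adjusted p under 0.05: Slc38a5 fell and Slc7a2 rose. Over all 13115 tested genes 0.945% were called, 0.465% as higher and 0.48% as lower. The labels number the preparations 1 to 3 in each group, without saying what a number stands for. With that number as a block, the test called 4 members, adding Slc1a2, lower, and Slc6a6, higher, against 5.99% of all tested genes. The median log2 fold change was 0.11 over the 34 tested members and 0.02 over all tested genes. The groups did not overlap in 11 of the 34, with the knockouts higher in 6 and lower in 5, a share to be read beside the 22.9% of all tested genes whose groups did not overlap (12% higher and 10.9% lower). In 27 members the log2 fold change was under 0.5 in size.

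**Figure D2:**
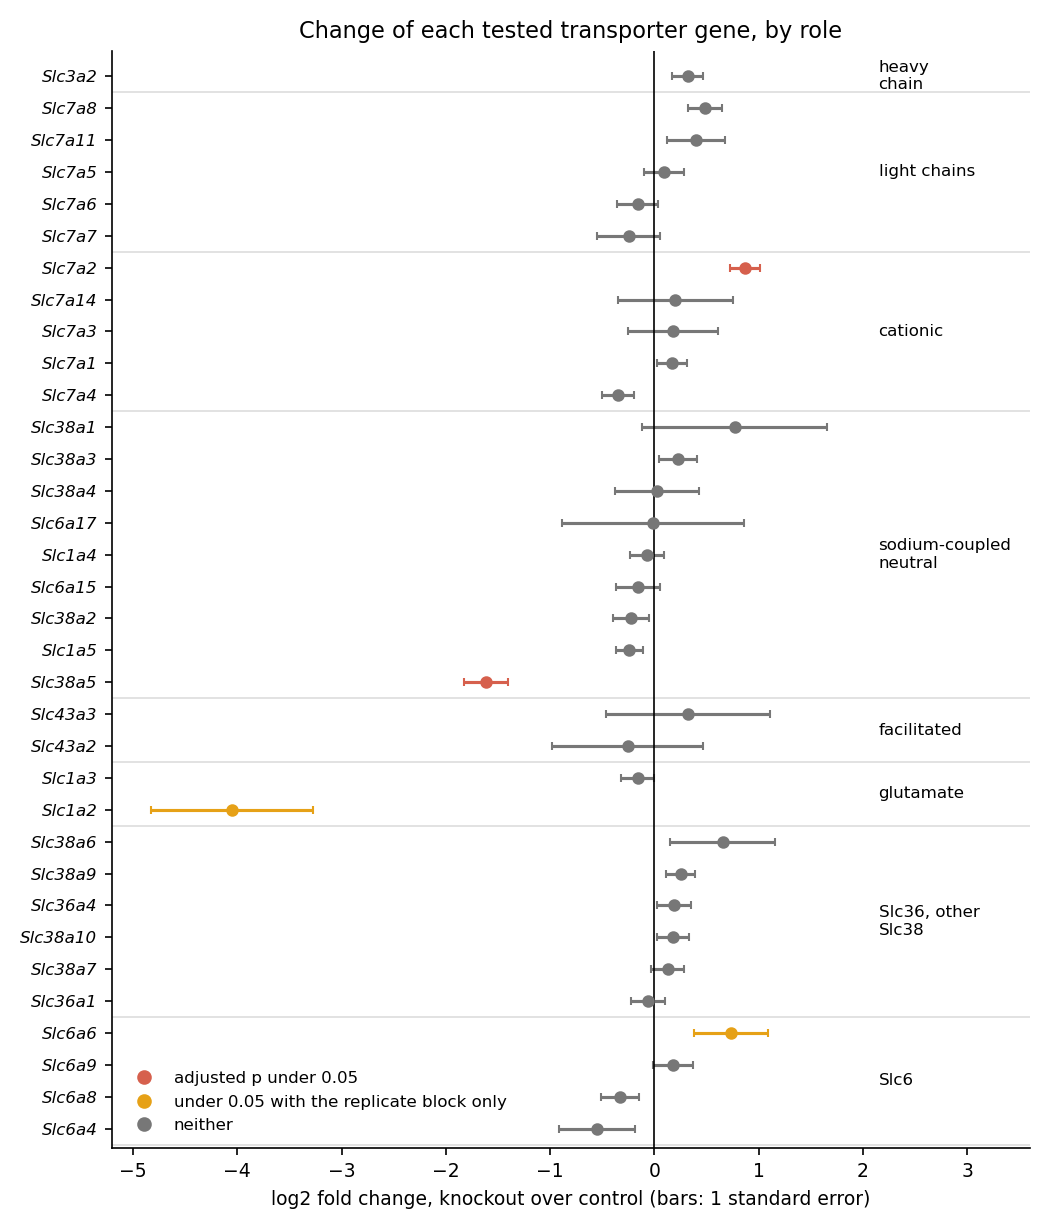
Log2 fold change of knockout over control for the 34 tested members by role, with bars of 1 standard error. Slc38a5 (-1.62) and Slc7a2 (0.87) have an adjusted p under 0.05, and Slc1a2 (-4.05) and Slc6a6 (0.73) pass that threshold with the replicate block.

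The scaling of the libraries matters for small changes. Replacing TMM factors by library totals moved the median over all tested genes up by 0.41 on the log2 scale, and the members moved with it, to a median of 0.52. With library totals 6 members were called, namely Slc38a5 and Slc1a2 as lower and Slc7a2, Slc7a8, Slc38a3 and Slc3a2 as higher, against 11.6% of all tested genes. DESeq2 called 4 members (4.52% of all tested genes), the test without a filter 4 of 51 members tested (3.3%), and limma-voom 3 (0.64%). Forward-strand and reverse-strand counts gave 3 each, of 34 and 33 members tested (1.31% and 1.15%). The forward strand held 50.1% to 50.3% of the strand counts in every library, so these settings divide the same unstranded reads. Another size factor method, RLE, gave 2 (0.9%), as did leaving the digestive enzymes out of the library sizes (0.907%). A filter of at least 10 counts per library also gave 2, of 32 members tested (1.89%). With Xist status as a covariate edgeR called 0 members (0.16%), with 5 at an unadjusted p under 0.05 beside 10.6% of all tested genes. Without control replicates 1 to 3 in turn it called 3 (3.41%), 0 (0.143%) and 0 (0.389%), and without knockout replicates 1 to 3 in turn 1 (0.202%), 2 (0.64%) and 0 (0.175%). In the 3 refits without a call, 4 members had an unadjusted p under 0.05 without control replicate 2 (11.6% of all tested genes), 6 without control replicate 3 (12%) and 3 without knockout replicate 3 (11.7%).

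Among the 12 sodium-coupled carriers of neutral amino acids, 9 were tested, 1 fell, none rose and 8 were not called. Slc38a5 (ENSMUSG00000031170, chromosome X) measured 54.6, 61.3 and 53.4 CPM in the 3 controls against 12.8, 23.2 and 19.3 CPM in the 3 knockouts. Every knockout library lay below every control, by a gap wider than the range within either group. The mean fell from 56.4 CPM ± 4.25 (SD, n = 3) to 18.4 CPM ± 5.28, which is 32.6% of the control level, with a log2 fold change of -1.62 (SE 0.21; edgeR adjusted p = 0.0150). With the replicate block the adjusted p in the edgeR test was 0.000209. Control replicate 1, the only control with few Xist counts, lay between the other controls, and a single library gives little basis to separate Xist status from genotype. With Xist status as a covariate the log2 fold change was -1.57, but the adjusted p in the edgeR test rose to 0.142. The call was also lost without control replicate 2 (log2 fold change -1.55, edgeR adjusted p = 0.102), without control replicate 3 (-1.65, 0.0598) and without knockout replicate 3 (-1.65, 0.101). The islet marker sum was higher in knockout replicates 1 and 2 than in any control and lower in knockout replicate 3, and the part of islet cells in the Slc38a5 values was not tested.

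The sequence around the annotated start of Slc38a5 is shown, with that of Slc1a2 further below, because these are the members that were lower in every knockout library by the largest folds. Both are RefSeq windows of 300 bases on build GRCm38.p6, from 250 bases before the start to 50 after it, printed 5′ to 3′ on the gene's strand, with matches to 4 motifs in capitals: TGATGNAA, the core of the amino acid response element that ATF4 binds, the cyclic AMP element TGACGTCA, the E-box CACGTG and the TC box TTTCCC, each searched on both strands. The count tables were made on another build, so only the names link these windows to the counts. The Slc38a5 window is chrX:8271131-8271430 on the plus strand.
Slc38a5: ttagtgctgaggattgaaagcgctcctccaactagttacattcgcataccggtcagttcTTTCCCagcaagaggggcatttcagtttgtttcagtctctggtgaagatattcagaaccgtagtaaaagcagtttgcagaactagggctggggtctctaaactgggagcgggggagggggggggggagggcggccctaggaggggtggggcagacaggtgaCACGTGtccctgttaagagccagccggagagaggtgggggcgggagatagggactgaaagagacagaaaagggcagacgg
It holds 1 TC box and 1 E-box, and neither of the other motifs. TC boxes were present in 25.2%, E-boxes in 7.15%, amino acid response cores in 3.97% and cyclic AMP elements in 1.79% of all 32851 windows. A match of letters is a description and not a bound site. Of the 34 tested members 23 had a window, with 35 windows in all. By gene, the TC box was in 6, the E-box in 4, the amino acid response core in 3 (Slc1a4, Slc7a7 and Slc7a11) and the cyclic AMP element in 1. By window, the shares were 20% for the TC box, 11.4% for the E-box, 11.4% for the amino acid response core and 2.86% for the cyclic AMP element.

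The make-up of the sodium-coupled group differed between the genotypes. Per kb, Slc38a3 and Slc38a5 were at nearly the same level in control, with a ratio of Slc38a3 to Slc38a5 of 0.814, 0.976 and 0.970 in replicates 1 to 3. In knockout the ratio was 4.38, 3.12 and 2.80, with no overlap. Of the summed level of Slc38a1 to Slc38a5, Slc38a5 made up 43.3% ± 2.04 (SD, n = 3) among controls and 18.5% ± 2.96 among knockouts, and Slc38a3 made up 39.7% ± 2.31 and 61.9% ± 4.29. A ratio within a library does not depend on its scaling. Slc38a3 was not called, with 105, 141 and 122 CPM in the controls against 132, 171 and 127 CPM in the knockouts and a log2 fold change of 0.22 (SE 0.18). The summed level of the 12 carriers was 72.1 CPM per kb ± 6.15 (SD, n = 3) for the controls and 56.1 ± 8.53 for the knockouts, which differ by -16.0 without overlap. Slc38a5 alone differed by -17.0, and without it the sums were 47.0 ± 4.50 and 47.9 ± 6.50. Unlike the ratios, these sums depend on the scaling of the libraries. The summed level of the 12 carriers overlapped between the groups when scaled by library totals, without TMM factors.

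**Figure D3:**
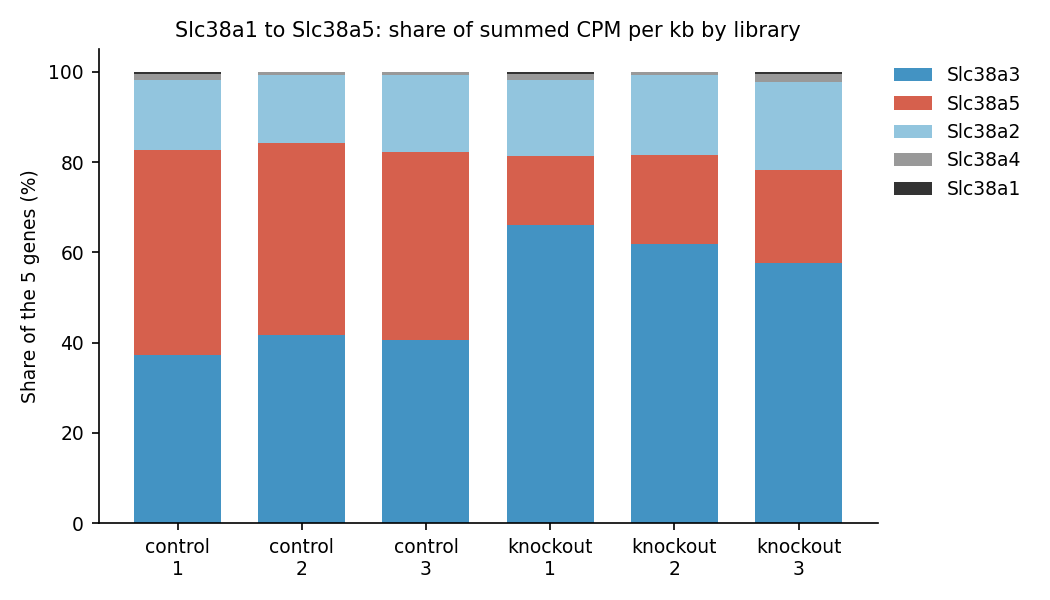
Share (%) of the summed CPM per kb of Slc38a1 to Slc38a5 that each gene held in each of the 6 libraries. Slc38a5 held 41.7% to 45.6% in the controls and 15.1% to 20.6% in the knockouts.

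The other abundant sodium-coupled carriers were not called. Slc38a2, whose transcript is known to rise when amino acids are short, had 72.4 to 86.2 CPM in control and 56.3 to 81.1 CPM in knockout (log2 fold change -0.22, SE 0.17). Slc1a5 was lower in every knockout library, at 31.9 to 38.1 CPM against 39.9 to 41.4 CPM, but its log2 fold change of -0.24 (SE 0.13) had an edgeR adjusted p of 0.400. Slc1a4 had a log2 fold change of -0.07 (SE 0.16). With library totals the fitted values of these 3 genes were above 0, so their direction depends on the scaling.

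The cationic carriers gave 1 rise among 5 members, all tested, and 4 were not called. Slc7a2 (ENSMUSG00000031596, chromosome 8), which carries arginine, lysine and ornithine, measured 23.6, 19.9 and 21.4 CPM in the 3 controls against 35.8, 37.8 and 45.4 CPM in the 3 knockouts. The groups did not overlap, and the knockout was higher in each numbered pair. Its mean went from 21.6 CPM ± 1.88 (SD, n = 3) to 39.7 CPM ± 5.09, 1.83 times the control level, with a log2 fold change of 0.87 (SE 0.14; edgeR adjusted p = 0.0306, 0.00561 with the block). The call was kept without control replicate 1 and lost without any other single library. The adjusted p in the edgeR test was 0.179 and 0.127 without control replicates 2 and 3, and 0.0991, 0.0834 and 0.140 without knockout replicates 1 to 3, while the log2 fold change stayed between 0.76 and 0.94. With Xist status as a covariate it was 0.75, with an edgeR adjusted p of 0.263. In the GRCm38 annotation exons of Slc7a2 overlap the long non-coding gene Gm26584 on the other strand, and the counts do not separate strands.

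Slc7a1, the cationic carrier most cells use, did not pass the test, with 37.0, 33.2 and 31.4 CPM in the controls against 33.9, 37.9 and 42.8 CPM in the knockouts (log2 fold change 0.17, SE 0.14). The order of these carriers per kb therefore differed between the groups. Slc7a2 stood at 0.805, 0.756 and 0.859 times the level of Slc7a1 in control replicates 1 to 3 and at 1.33, 1.26 and 1.34 times in knockout replicates 1 to 3. Slc7a3, a related carrier, had a log2 fold change of 0.18 (SE 0.43), with control replicate 3 at 2.54 CPM and the other 5 libraries between 6.31 and 8.66 CPM. Slc7a4, a family member without an established substrate, was lower in every knockout library, at 9.49 to 9.97 CPM against 11.02 to 15.2 CPM. Its log2 fold change was -0.35 (SE 0.15; edgeR adjusted p = 0.298), and 0.08 with library totals, and its exons overlap those of P2rx6.

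**Figure D4:**
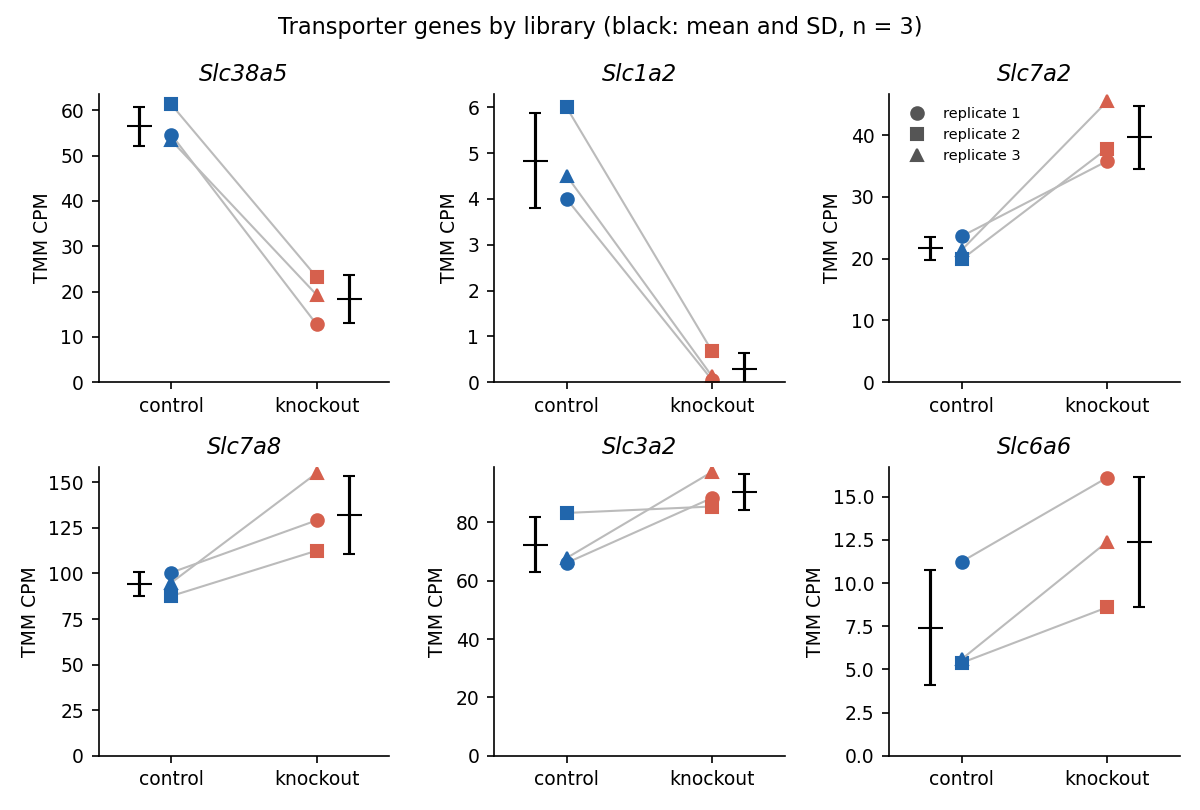
TMM-normalised CPM of 6 transporter genes in each library, with lines joining preparations of the same replicate number and black bars for mean and SD (n = 3). Slc38a5 and Slc1a2 are lower and Slc7a2, Slc7a8 and Slc3a2 higher in all 3 knockout libraries, while the groups of Slc6a6 overlap.

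Among the glutamate carriers 2 of 5 members were tested. Slc1a2 (ENSMUSG00000005089, chromosome 2), the high-affinity glutamate carrier best known from astrocytes, was counted 127, 146 and 124 times in the controls against 2, 24 and 5 times in the knockouts. Scaled to CPM, the controls stood at 4.0, 6.0 and 4.51 against 0.0536, 0.685 and 0.134 for the knockouts. All 3 knockout libraries were far below the controls, and knockout replicate 2 held most of what remained. The knockout mean was 6.02% of the control mean. The log2 fold change was -4.05 (SE 0.78), the largest in size among the tested members, with an edgeR adjusted p of 0.0733 and 0.00124 with the block (log2 fold change -4.28). It passed the filter on low counts through the controls alone, so that it could only enter the test as a lower gene. It was also called by DESeq2 and limma-voom, with library totals, without a filter and with counts of either strand. The strand settings divide the same unstranded reads and are not separate evidence. The edgeR test called it without control replicate 1 (adjusted p = 0.0484) and without knockout replicate 2 (0.00516, log2 fold change -5.63). With Xist status as a covariate its log2 fold change was -3.78 and its adjusted p in the edgeR test 0.275. Exons of Slc1a2 overlap the antisense gene Gm13872 in the GRCm38 annotation, and counts of either strand do not separate them. The Slc1a2 window, chr2:102706188-102706487 on the plus strand, holds none of the 4 motifs.
Slc1a2: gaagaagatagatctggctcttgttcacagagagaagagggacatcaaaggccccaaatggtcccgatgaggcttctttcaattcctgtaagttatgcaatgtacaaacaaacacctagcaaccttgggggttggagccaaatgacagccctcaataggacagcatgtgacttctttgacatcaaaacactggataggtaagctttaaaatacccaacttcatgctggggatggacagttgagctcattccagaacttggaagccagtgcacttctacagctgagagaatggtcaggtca
Slc1a3, the glutamate carrier of many glia and some epithelia, was at 7.76 to 8.83 CPM in control and 6.08 to 8.45 CPM in knockout (log2 fold change -0.16, SE 0.16). It held nearly all of the glutamate carrier transcripts in knockout, and the summed level of the 5 genes was 1.33 CPM per kb ± 0.0689 (SD, n = 3) in control and 0.887 ± 0.148 in knockout.

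The heavy chain Slc3a2 and its light chains were not called in the main test. Slc3a2 measured 66.1, 83.3 and 67.8 CPM in the 3 controls against 88.4, 85.5 and 97.3 CPM in the 3 knockouts, just without overlap (log2 fold change 0.32, SE 0.15; edgeR adjusted p = 0.329). Slc7a8 measured 100.5, 87.6 and 94.9 CPM in the controls against 129, 112.5 and 155 CPM in the knockouts, also without overlap. Its log2 fold change was 0.49 (SE 0.16), with an edgeR adjusted p of 0.192, 0.0886 with the block and 0.0442 in DESeq2's Wald test. The level of Slc7a8 over that of Slc3a2 overlapped between the groups, at a per kb ratio of 0.934 ± 0.171 (SD, n = 3) in control and 1.03 ± 0.0977 in knockout. Slc7a5 had a log2 fold change of 0.09 (SE 0.19), with 42.7, 38.2 and 30.3 CPM in the controls against 34.2, 34.9 and 49.5 CPM in the knockouts. Slc7a8 stood at 1.74, 1.70 and 2.32 times the level of Slc7a5 per kb in control and at 2.80, 2.39 and 2.32 times in knockout, where the lowest knockout and highest control values met. Slc7a6 and Slc7a7, which exchange cationic for neutral amino acids, had log2 fold changes of -0.16 (SE 0.20) and -0.25 (SE 0.30, with exons that overlap Oxa1l), and Slc7a11, the cystine and glutamate exchanger xCT, one of 0.40 (SE 0.28). Slc7a11 was scarce, at 2.49 to 2.84 CPM in control and 2.33 to 4.85 CPM in knockout. The summed light chain level was 31.4 CPM per kb ± 2.20 (SD, n = 3) in control and 39.4 ± 6.69 in knockout, of which Slc7a8 made up the largest part.

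Of the 13 Slc6 carriers of neurotransmitters, osmolytes and glycine, 4 were tested and none was called in the main test. Slc6a6, the taurine carrier, measured 11.2, 5.38 and 5.60 CPM in the 3 controls against 16.1, 8.59 and 12.4 CPM in the 3 knockouts. The groups overlapped, but the knockout was higher in each of the 3 numbered pairs, and the main edgeR test did not call it (adjusted p = 0.369). It was called with the block (log2 fold change 0.77, edgeR adjusted p = 0.0166) and without a filter on low counts (0.00434), and in no other alternative of 17. Its high libraries, control replicate 1 and knockout replicates 1 and 3, are also those with the most leukocyte and stromal marker transcripts, and with Xist status as a covariate its log2 fold change was 0.14. The part of those cells in its values was not tested. Slc6a9 measured 31.3, 35.0 and 51.1 CPM in the controls against 44.8, 46.4 and 41.5 CPM in the knockouts (log2 fold change 0.18, SE 0.19), and its exons overlap those of B4galt2 and Ccdc24. Slc6a8, the creatine carrier, was lower in every knockout library at 3.33 to 4.61 CPM against 4.77 to 5.38 CPM, with a log2 fold change of -0.33 (SE 0.18; edgeR adjusted p = 0.413) that became 0.08 with library totals. Slc6a4, the serotonin carrier, was at 2.42 to 4.44 CPM in control and 1.61 to 3.74 CPM in knockout.

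The 10 proton-coupled, lysosomal and remaining Slc36 and Slc38 genes included 6 tested members, and none was called. Slc38a9, the lysosomal arginine sensor that signals to mTORC1, was at 5.45 to 6.24 CPM in control and 6.46 to 7.45 CPM in knockout, higher in every knockout library but with a log2 fold change of only 0.25 (SE 0.14; edgeR adjusted p = 0.427). Slc36a1 and Slc38a7, which export amino acids from lysosomes, had log2 fold changes of -0.06 (SE 0.17) and 0.13 (SE 0.16), and Slc36a4 one of 0.19 (SE 0.16). Slc38a10 was steady in control at 85.2 to 88.0 CPM and ranged from 88.0 to 114.6 CPM in knockout, where the lowest knockout and highest control values nearly met (log2 fold change 0.17, SE 0.15). The groups did not overlap for Slc38a9, Slc36a4 and Slc38a10, but none of these differences passed the test.

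A few scarce members varied more between preparations than between genotypes. The genes of this paragraph were chosen after their values were seen. Slc38a1, a glutamine carrier, measured 3.97, 0.493 and 0.654 CPM in the 3 controls against 3.86, 1.26 and 3.70 CPM in the 3 knockouts. Slc43a3, whose known substrates are nucleobases, measured 7.28, 1.36 and 2.18 CPM in the controls against 6.92, 1.77 and 4.91 CPM in the knockouts, and Slc43a2, a facilitated carrier of large neutral amino acids, 3.40, 0.657 and 0.727 CPM and 1.80, 0.599 and 1.64 CPM. In all 3 genes control replicate 1 and knockout replicates 1 and 3 were the highest, which are the libraries with the highest summed leukocyte and stromal markers. Their log2 fold changes had standard errors of 0.89, 0.79 and 0.72, against 0.21 for Slc38a5, and the part of other cells in these values was not tested.

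**Figure D5:**
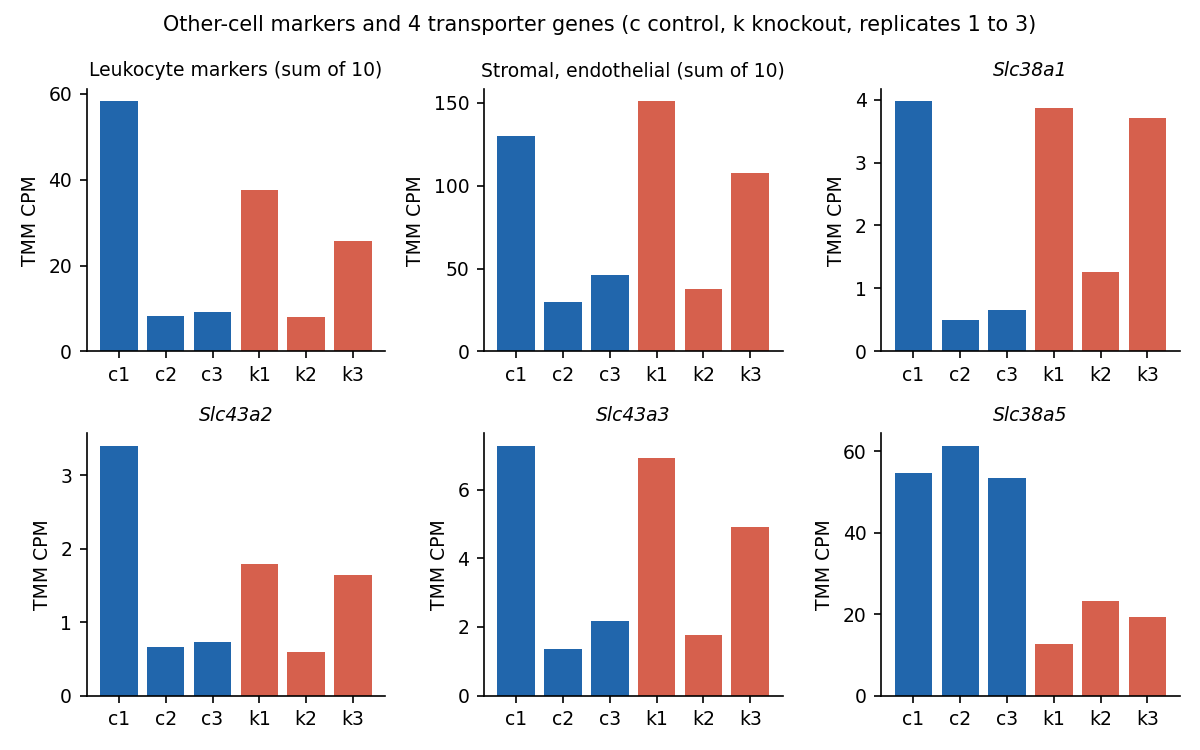
Summed TMM-normalised CPM of 10 leukocyte and 10 stromal and endothelial markers, and the CPM of 4 transporter genes, in control (c) and knockout (k) replicates 1 to 3. Slc38a1, Slc43a2 and Slc43a3 are highest in c1, k1 and k3, where the marker sums are also highest, and Slc38a5 is higher in each control than in any knockout.

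The summed level of all 61 members was 166 CPM per kb ± 6.33 (SD, n = 3) for the controls and 168 ± 10.2 for the knockouts. The difference of 1.11% of the control level was smaller than the spread between libraries. Scaled by library totals the same difference was 34.7%, so the total supply of transporter transcripts per library cannot be stated apart from the scaling.

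Genes around the transporters were examined in 4 lists. Of 27 genes of the amino acid response, which the transcription factor ATF4 drives when amino acids are short, 27 were tested, 1 rose, none fell and 26 were not called, with a median log2 fold change of 0.10. The gene that rose was Atf5, a transcription factor made more efficiently under that response, which measured 39.8, 51.4 and 26.5 CPM in the 3 controls against 104, 103 and 111 CPM in the 3 knockouts. Its log2 fold change was 1.43 (SE 0.23; edgeR adjusted p = 0.0265, 0.00223 with the block). The edgeR adjusted p was 0.0615 without control replicate 2, 0.125, 0.0816 and 0.140 without knockout replicates 1 to 3, and 0.256 with Xist status as a covariate. Exons of Atf5 overlap Il4i1 and Nup62 on the other strand. Atf4 itself (log2 fold change -0.17, SE 0.17) and Asns, the asparagine synthetase gene that is a standard target of the response (-0.23, SE 0.16), did not pass the test.

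None of 34 tested genes of amino acid sensing upstream of mTORC1 was called with or without the block, with 5 at an unadjusted p under 0.05 and a median log2 fold change of 0.04. Among 20 genes of glutamine and glutamate metabolism none was called in the main test, 7 had an unadjusted p under 0.05, and the median was -0.14. With the block Gclc and Gclm, the subunits of the enzyme that starts glutathione synthesis from glutamate and cysteine, were called lower (edgeR adjusted p = 0.0287 and 0.0151). Gclm measured 17.4, 24.4 and 25.6 CPM in the controls against 12.3, 13.6 and 16.0 CPM in the knockouts, and Gclc 11.2, 11.7 and 15.3 CPM and 7.34, 8.74 and 8.74 CPM, both without overlap. Both were also called by DESeq2 and without a filter. Their log2 fold changes of -0.68 and -0.62 in the main test became -0.25 and -0.20 with library totals and -0.32 and -0.44 with the Xist covariate, where neither was called. Among 28 other amino acid carriers, which include those of mitochondria and lysosomes, 19 were tested and none was called in the main test, with 6 at an unadjusted p below that threshold. In the blocked test the mitochondrial serine carrier family member Sfxn2 was called higher (log2 fold change 0.57 without the block, SE 0.13) and the lysosomal sialic acid carrier Slc17a5 lower (-0.66, SE 0.13), with edgeR adjusted p of 0.0305 and 0.0225. DESeq2 and the test without a filter also called both. With library totals the log2 fold changes were 0.98 for Sfxn2 and -0.24 for Slc17a5, and only the first was called. At an unadjusted p under 0.05 the transporter members themselves numbered 5 of 34, beside 16.7% of all tested genes.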

How the data were processed

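RNA was measured in 3 control and 3 knockout acinar preparations, 1 library each, from poly-A enriched RNA per the labels' protocols. The authors deposited raw whole-number counts per gene with no header. The submitters' processing notes name STAR 2.7.10a and build GRCm39, and the annotation is not given in the sources used here. Rows for reads outside genes, 36.9% to 45.7% of reads, stayed out. Counts without regard to strand were used. Of 55414 identifiers, 52133 (94.1%) matched GENCODE M21 (GRCm38), used for names, exon lengths and overlaps only.

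edgeR 4.0.16 in R 4.3.3 was run on 13115 genes passing filterByExpr, with TMM factors, robust quasi-likelihood tests and Benjamini-Hochberg adjustment over all of them. A gene is called at an adjusted p under 0.05, and SE is the log2 fold change divided by the square root of F. The code was tested on simulated counts. DESeq2 1.42.0 and limma 3.58.1 (voom) served as alternatives. The labels call the preparations biological replicates, each with its own identifier, but do not state that each came from a separate animal. The p-values measure the spread between preparations. No libraries agreed within sampling noise. The counts carry no molecular identifiers, and low counts further limit the precision of scarce genes.

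The labels do not say whether same-numbered preparations belong together. Deviations from group means correlated at 0.63, 0.455 and 0.285 in same-numbered pairs 1 to 3. The other pairs ran from -0.496 to 0.210, the highest being control replicate 3 with knockout replicate 2. The replicate numbers were taken to pair the samples on these values alone. The pairing thus comes from the same counts as the blocked test, and results with the block depend on it. The members, lists and motifs were chosen with earlier results of these data known. Named members were those called with or without the block, those with an unadjusted p under 0.05, the 10 highest per kb, the heavy chains and the tested light chains, and other members were added, after their values were seen, to complete each role. Of the lists, genes called with or without the block are named, and Atf4 and Asns were chosen after their values were seen.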

Additional observations from a re-analysis of the deposited data

How the results depend on the processing

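The results were refitted under 17 alternatives, and the transporters were called in these numbers. The count of 2 called members was 6 with library totals, 4 without a filter, 4 with DESeq2's Wald test, 4 with the replicate block, 0 with Xist status as a covariate and 0 to 3 when 1 library was left out. It was 0 without control replicate 2, control replicate 3 or knockout replicate 3 and 1 without knockout replicate 1. Over all genes the 124 calls became 1519 with library totals (1442 higher and 77 lower), 850 without a filter, 210 when 10 counts per library were required, 593 with DESeq2, 785 with the replicate block, 21 with the Xist covariate and 20 to 461 when 1 library was left out. Trip12 was not called with library totals (log2 fold change -0.49) or the Xist covariate (-1.05), and lay between -0.98 and -0.82 when 1 library was left out, called only without control replicate 1. The difference in summed level was 34.7% with library totals. Of 22 genes named by rule, 15 kept their direction in every alternative, including Slc38a5, Slc7a2, Slc1a2 and Slc6a6. With library totals Slc7a4 (0.08), Slc1a5 (0.17), Slc38a2 (0.20), Slc1a4 (0.35), Slc7a6 (0.26) and Slc7a7 (0.17) turned positive. With the Xist covariate Slc7a5 was at -0.11, Slc1a4 at 0.01 and Slc7a6 at 0.02. When 1 library was left out Slc1a4 ranged from -0.18 to 0.09, Slc7a5 from -0.10 to 0.19 and Slc7a6 from -0.29 to 0.07. The cause of these moves was not tested, except that library totals shift the median of all genes by 0.41. Slc1a2 could not be tested under the filter of 10 counts per library. The block changed no call of a named gene other than those given with it in the report. Low counts limit the precision of Slc6a17, at under 1 CPM in every library.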
